A study of Mus musculus with 43 samples.

Results

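The annexins are a family of proteins that bind membrane phospholipids when calcium is present. The genes described here are Anxa1, Anxa2, Anxa3, Anxa4, Anxa5, Anxa6, Anxa7, Anxa8, Anxa10 and Anxa11. They were taken by symbol, and each of the 10 was found once in every bulk RNA table (3 tables of 23951 genes) and in every single-cell gene list (7 lists of 54307 genes). Anxa9 and Anxa13, the other annexins looked up, were kept apart.

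Bulk RNA-seq covered primary intestinal organoids of wild-type C57BL/6 mice in 6 groups of 3 libraries. Organoids were not irradiated and collected on day 7 (D7 non-IR), given 4 Gy on day 4 and collected on day 7 (D7 IR), or given 4 Gy on day 4 and collected on day 11 (D11 IR). Each condition received either vehicle or 2 ng/mL TGFB1, a cytokine, for 24 h from day 6, so the D11 organoids were sampled after that exposure had ended. Single-cell RNA-seq covered irradiated organoids (4 Gy on day 4) collected on day 8 after 24 h of vehicle, called 0 h, or after 6, 15 or 24 h of 1 ng/mL TGFB1, with 1 library per time. It also covered Ki67-RFP positive crypt cells sorted from Mki67tm1.1Cle/J mice, a strain whose red reporter marks cells making Ki67, with 1 library from a non-irradiated littermate and 2 libraries taken 56 h after 12 Gy to the whole body. Organoids grown from epithelium lack the immune and stromal cells of the gut wall. The labels do not say whether bulk replicates were separate cultures or animals, so their p-values measure the spread between these libraries, which may be technical.

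Annexins attach to the inner face of membranes and take part in membrane repair, vesicle traffic and the link between membrane and actin. Some also act outside the cell. Anxa1 is a ligand of the formyl peptide receptors and limits inflammation, and Anxa2 forms a complex with S100a10 that binds plasminogen and its activator at the cell surface. Anxa5 binds the phosphatidylserine that dying cells expose.

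Start-site sequences were matched for 8 of the 10 genes in RefSeq (GRCm38.p6), with none for Anxa3 and Anxa6. The 250 bases before the gene start are shown for the 3 genes with the largest rises, for the most abundant riser Anxa2, and for Anxa4, which fell. Each is written 5′ to 3′ on the strand of the gene, and for Anxa4 the first of 2 listed starts is used.
Anxa1 (chr19:20390672-20390921, minus strand): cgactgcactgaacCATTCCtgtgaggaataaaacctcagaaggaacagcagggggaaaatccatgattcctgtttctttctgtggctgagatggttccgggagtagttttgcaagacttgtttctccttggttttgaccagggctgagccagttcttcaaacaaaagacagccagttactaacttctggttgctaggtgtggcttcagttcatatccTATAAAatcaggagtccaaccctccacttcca
Anxa2 (chr9:69453433-69453682, plus strand): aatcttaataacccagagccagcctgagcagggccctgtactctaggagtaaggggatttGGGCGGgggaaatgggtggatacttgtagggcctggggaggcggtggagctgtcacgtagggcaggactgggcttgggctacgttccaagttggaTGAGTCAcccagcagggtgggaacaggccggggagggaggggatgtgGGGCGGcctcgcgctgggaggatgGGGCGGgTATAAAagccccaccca
Anxa4 (chr6:86793585-86793834, minus strand): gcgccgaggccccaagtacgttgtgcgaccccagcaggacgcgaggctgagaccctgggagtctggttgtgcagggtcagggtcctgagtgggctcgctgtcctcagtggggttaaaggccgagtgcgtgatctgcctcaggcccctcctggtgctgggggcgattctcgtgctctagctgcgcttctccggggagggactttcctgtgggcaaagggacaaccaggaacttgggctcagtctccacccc
Anxa8 (chr14:34085729-34085978, plus strand): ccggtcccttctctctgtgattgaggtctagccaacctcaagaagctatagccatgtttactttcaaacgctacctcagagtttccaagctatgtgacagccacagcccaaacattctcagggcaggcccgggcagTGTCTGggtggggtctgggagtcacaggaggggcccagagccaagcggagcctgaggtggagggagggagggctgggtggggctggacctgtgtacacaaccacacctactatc
Anxa10 (chr8:62123194-62123443, minus strand): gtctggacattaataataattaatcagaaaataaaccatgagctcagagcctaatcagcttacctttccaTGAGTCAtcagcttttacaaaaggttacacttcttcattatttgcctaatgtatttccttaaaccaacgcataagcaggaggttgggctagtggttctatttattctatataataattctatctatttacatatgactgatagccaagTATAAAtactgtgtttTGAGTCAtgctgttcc
Capitals mark matches, on either strand, to TGANTCA (the AP-1 site), GGAATG (a TEAD core), CAGACA (a SMAD element), GGGCGG (the GC box) and TATAAA (the TATA box). These letters occur in 6.75, 12.6, 17.1, 32.7 and 12.4% of the 32851 windows of that length. TGANTCA matched in Anxa2 (1 match) and Anxa10 (2 matches, starting 180 and 16 bases before the gene start) and in no window of the other 6 matched genes. TATAAA matched in Anxa1 and Anxa10, in both 32 bases before the start, and in Anxa2 at 17 bases. Anxa8 held 1 match to CAGACA and Anxa1 1 match to GGAATG, while neither start of Anxa4 held any of the 5 motifs. A match is a description of letters, and no match says only that the letters are absent from this window.

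The 18 bulk libraries summed to 447728 to 621996 FPKM (fragments per kilobase of transcript, scaled to the library's mapped fragments), with 11040 to 11361 genes above 1 FPKM, and their read depth is unknown. After the filters 2932, 4283, 2890 and 2218 organoid cells remained for 0, 6, 15 and 24 h of TGFB1, and at most 1 cell barcode was shared by any pair of libraries. Ptprc, the pan-leukocyte marker, reached at most 0.0726 FPKM in any bulk library, Pecam1 of endothelium 0.203 and Col1a1 of fibroblasts 0.576. The summed list of 8 immune genes was 0.329 to 0.811 FPKM with vehicle and 0.331 to 0.995 with TGFB1 in D7 non-IR libraries. It was 1.24 to 1.92 and 2.42 to 3.47 FPKM after irradiation at D7 and 0.492 to 0.742 and 9.14 to 11.7 FPKM at D11. Of the D11 sum with TGFB1, Laptm5 alone held 8.42 to 11.4 FPKM. The 5 endothelial genes were lower with TGFB1, at D11 with 13.96 to 15.9 FPKM for vehicle and 2.92 to 4.70 for TGFB1, nearly all of it Egfl7. The 6 mesenchymal genes stayed at or under 0.623 FPKM. Cd3e, Cdh5, Kdr, Cldn5, Dcn and Lum were each listed at 0 in at least 1 library and at most at 0.0701 FPKM. The part of these lists in the annexin changes was not tested.

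Without TGFB1, Anxa4 and Anxa2 led the genes described here, a ranking that leaves out Anxa9 and Anxa13. In D7 non-IR vehicle libraries the mean was 1042 ± 14.1 FPKM for Anxa4 and 828 ± 3.46 for Anxa2 (SD, n = 3), followed by Anxa3 (99.1 ± 0.691), Anxa5 (73.0 ± 3.26), Anxa7 (61.5 ± 0.334), Anxa11 (36.8 ± 1.07), Anxa10 (24.8 ± 0.556), Anxa1 (19.8 ± 0.508), Anxa6 (4.04 ± 0.0859) and Anxa8 (1.92 ± 0.377). No neighbours in this order overlapped. Anxa13, kept apart from this order, averaged 217 FPKM in the same libraries, between the means of Anxa2 and Anxa3. With TGFB1, Anxa2 stood first at 3287 ± 87.6 FPKM and Anxa4 second at 826 ± 16.8, and Anxa1 stood next, up from a place between Anxa10 and Anxa6, with libraries that overlapped those of Anxa3. In D7 IR organoids with TGFB1, Anxa5, Anxa10, Anxa1, Anxa3 and Anxa8 lay between 173 and 236 FPKM, and neighbours among these 5 overlapped.

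**Figure D1:**
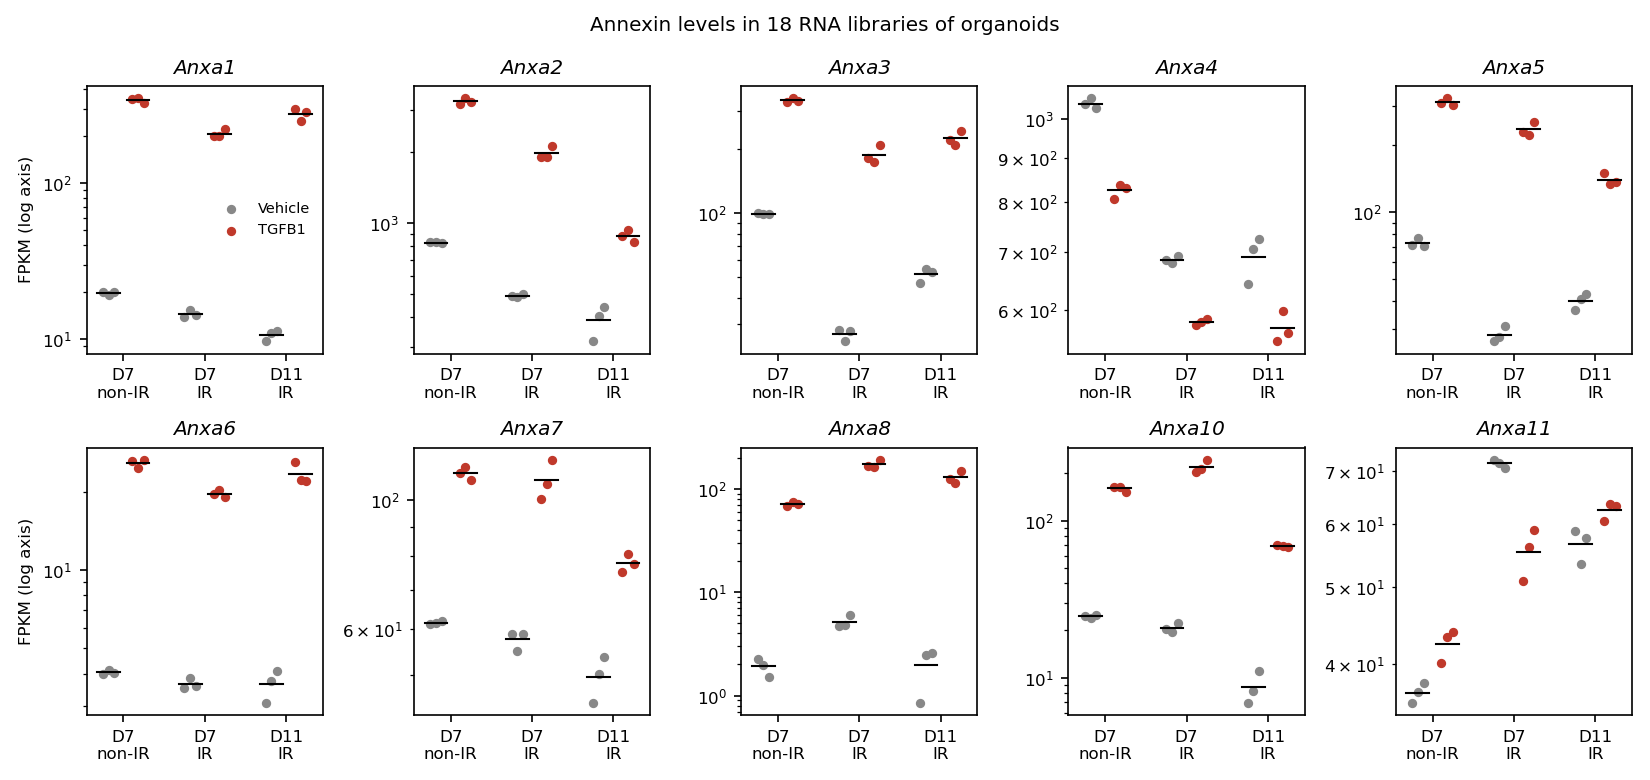
FPKM of each annexin (log axis) in the 18 bulk RNA libraries of organoids, by condition. Points are libraries (grey vehicle, red TGFB1) and bars are means of 3. The red points lie above the grey ones in every condition for 8 genes, Anxa4 runs the other way, and Anxa11 changes direction between conditions.

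TGFB1 raised most of the family in all 3 conditions. limma called 9 of the 10 genes higher and 1 lower in D7 non-IR, where 33.3% of all tested genes were called higher and 34.9% lower (Benjamini-Hochberg adjusted p under 0.05, two-sided). In D7 IR it called 8 higher and 2 lower, beside 35.8% and 39.7% of all genes, and in D11 IR 8 higher and 1 lower, beside 32.3% and 31.6%. In each condition 7 of the 10 rose at least 2-fold, which 5.52, 7.79 and 5.67% of all genes did. The median log2 change of the 10 genes was 2.03, 2.45 and 1.94, and that of all tested genes −0.02, −0.03 and 0.01. Changes are of log2(FPKM + 1), which understates those of genes near 0. In bulk RNA, more cells of a type and more RNA per cell cannot be told apart.

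Anxa1 rose from 20.2, 19.2 and 19.9 FPKM to 346, 352 and 326 in the 3 D7 non-IR libraries of each treatment, from 13.8, 15.5 and 14.3 to 202, 201 and 223 in D7 IR, and from 9.68, 10.9 and 11.3 to 299, 250.03 and 287 in D11 IR. Every TGFB1 library lay far above every vehicle library. The log2 changes were 4.04, 3.75 and 4.59 (SE 0.0383, 0.0540 and 0.0903; limma adjusted p 6.91e-13, 1.24e-11 and 1.66e-09). By size it ranked 15, 25 and 13 among the rises of all tested genes.

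Anxa8, an annexin of stratified epithelia, had the largest change of the family in each condition. With vehicle it was the least abundant of the 10 genes or next to it, at 2.25, 1.98 and 1.51 FPKM in the 3 D7 non-IR libraries, 4.66, 4.87 and 6.04 after irradiation and 0.850, 2.46 and 2.57 at D11. With TGFB1 it reached 68.8, 75.0 and 70.7 FPKM, then 166, 161 and 192, then 125, 113 and 149.9 in the same order of conditions, again with no overlap. The log2 changes were 4.64, 4.82 and 5.51 (SE 0.0848, 0.0917 and 0.28; limma adjusted p 4.03e-11, 4.29e-10 and 1.27e-05), ranking 10, 7 and 6 of all tested genes.

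Anxa10, known from the stomach lining, rose from 24.9, 24.1 and 25.2 FPKM to 164, 164 and 153 in D7 non-IR. In D7 IR it rose from 20.5, 19.6 and 22.4 to 205, 213 and 245 FPKM. At D11 both groups were lower, with 6.92, 8.25 and 11.1 FPKM for vehicle and 70.0, 69.3 and 67.6 for TGFB1, still without overlap. Its log2 changes were 2.65, 3.34 and 2.87 (limma adjusted p at most 2.34e-07).

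Anxa2, the partner of S100a10, was the most abundant annexin in every bulk group given TGFB1. It rose from 831, 829.9 and 824 FPKM to 3209, 3382 and 3269 in D7 non-IR and from 493, 486 and 499.8 to 1909.8, 1897 and 2122 in D7 IR. In D11 IR it rose from 316, 404 and 444 to 886, 937 and 829 FPKM. The log2 changes were 1.99, 2.00 and 1.20 (limma adjusted p at most 5.15e-05), and the groups did not overlap in any condition.

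Anxa5 and Anxa3 moved in a similar way. Anxa5 rose from 71.3, 76.7 and 70.9 FPKM to 309, 326 and 303 in D7 non-IR, from 26.4, 27.6 and 30.9 to 231, 222 and 255 in D7 IR, and from 36.3, 41.0 and 42.9 to 149.7, 134 and 137 in D11 IR. Its log2 changes were 2.08, 3.02 and 1.78 (limma adjusted p at most 2.20e-07). Anxa3 rose from 99.8, 98.4 and 99.1 FPKM to 332, 346 and 335, from 28.1, 24.96 and 28.1 to 181, 174 and 208, and from 46.7, 54.8 and 53.0 to 219, 208 and 244 in the same order of conditions. The log2 changes of Anxa3 were 1.76, 2.75 and 2.10 (limma adjusted p at most 1.38e-07), and neither gene had overlapping groups.

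Anxa6, a long annexin with a duplicated core, was the least abundant of the 10 genes with TGFB1 but rose in every condition. Its vehicle libraries spanned 3.09 to 4.14 FPKM over the 3 conditions and its TGFB1 libraries 19.2 to 26.7 FPKM, with log2 changes of 2.42, 2.16 and 2.40. Anxa7, which binds sorcin and promotes membrane fusion, rose by less than 2-fold. Its means went from 61.5 to 112, from 57.5 to 108 and from 49.5 to 77.9 FPKM, with log2 changes of 0.85, 0.90 and 0.65 (limma adjusted p at most 9.99e-05).

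Anxa4, an annexin of epithelial membranes, fell with TGFB1 at D7. It went from 1039.6, 1057 and 1029.5 FPKM to 807, 839 and 833 in D7 non-IR and from 685, 681 and 693 to 576, 581 and 585 in D7 IR, with no overlap and log2 changes of −0.33 and −0.24 (limma adjusted p 1.27e-06 and 5.03e-05). At D11 it had 643, 706 and 726 FPKM with vehicle and 552, 599 and 565 with TGFB1 (−0.27, limma adjusted p 0.0471). That call was lost in 8 alternatives. They were quantile normalization (0.0031, limma adjusted p 0.972), median-ratio scaling (−0.27, adjusted p 0.0534) and the replicate number as a block. The others left out vehicle replicate 2, vehicle replicate 3 or any 1 of the 3 TGFB1 replicates (limma adjusted p 0.0802 to 0.185).

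Anxa11, which binds S100a6 and RNA granules, was the member whose direction differed between conditions. It rose slightly in D7 non-IR, from 35.7, 36.8 and 37.8 to 40.1, 43.2 and 43.8 FPKM (0.20, limma adjusted p 0.00188). In D7 IR it fell from 72.3, 71.5 and 70.6 to 50.9, 56.2 and 59.0 FPKM (−0.37, limma adjusted p 7.70e-05). At D11 it had 58.8, 53.4 and 57.6 FPKM with vehicle and 60.5, 63.5 and 63.3 with TGFB1 and did not pass (0.14, limma adjusted p 0.112), although it passed without vehicle replicate 1 (0.17, adjusted p 0.0482) and when the 18 libraries were fitted together (adjusted p 0.0275).

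**Figure D2:**
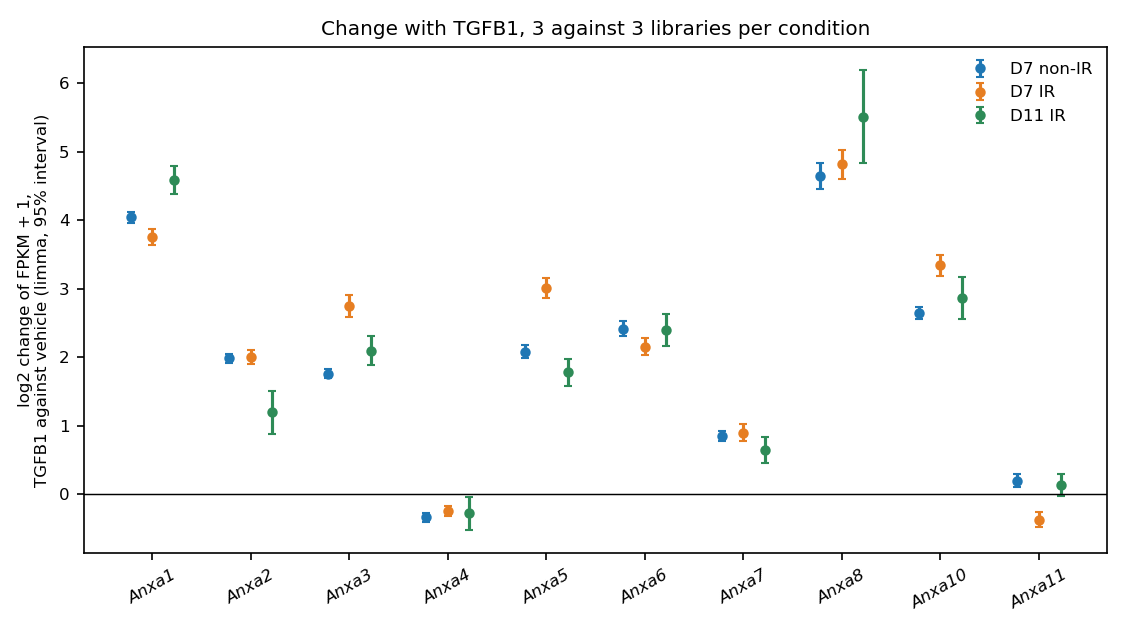
Change of each annexin with TGFB1 on the log2(FPKM + 1) scale, with limma's 95% intervals, in D7 non-IR (blue), D7 IR (orange) and D11 IR (green), 3 against 3 libraries each. Anxa8 and Anxa1 lie highest in all conditions, Anxa4 lies below 0, and Anxa11 lies on both sides of 0.

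Levels of different tables were set side by side without a test, since the tables may have been scaled apart. In vehicle libraries, 8 of the 10 genes were lower after irradiation at D7 with no overlap and 2 were higher, against 44.3% and 40.7% of all genes. Anxa3 was 0.273 times and Anxa5 0.388 times the non-irradiated mean, and the higher genes were Anxa8 (2.71 times) and Anxa11 (1.94 times). With TGFB1, 6 were lower after irradiation, 3 higher (Anxa8, Anxa10 and Anxa11) and Anxa7 overlapped, against 45.7% and 38.4% of all genes. From D7 IR to D11 IR the vehicle level was higher for 2 genes, Anxa3 and Anxa5, and lower for 6 (33.7% and 33.1% of all genes). The TGFB1 level was higher at D11 for 4, namely Anxa1, Anxa3, Anxa6 and Anxa11, and lower for 5 (38.7% and 38.8%), with Anxa10 at 0.312 and Anxa2 at 0.447 times its D7 IR mean.

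Whether irradiation altered the response to TGFB1 was tested with the interaction over the 12 D7 libraries. The log2 effect of TGFB1 was higher after irradiation for 3 genes and lower for 3, and 4 did not pass. Of all genes, 25.3% were called higher and 27.8% lower (limma, Benjamini-Hochberg). The effect was larger for Anxa3 (interaction 0.99 on the log2 scale, SE 0.0816, limma adjusted p 2.42e-07), Anxa5 (0.93, 5.87e-07) and Anxa10 (0.69, 1.24e-05). Anxa3 and Anxa5 began from lower vehicle levels after irradiation and also ended lower, whereas Anxa10 ended higher. The effect was smaller for Anxa1 (−0.29, limma adjusted p 0.00310) and Anxa6 (−0.26, 0.00467), of which Anxa6 no longer passed when the 18 libraries were fitted together (limma adjusted p 0.0547). That on Anxa11 (−0.56, limma adjusted p 1.15e-05) turned from a rise without irradiation to a fall after it. The 95% intervals of the terms that did not pass were −0.11 to 0.13 for Anxa2, 0.01 to 0.18 for Anxa4, −0.09 to 0.20 for Anxa7 and −0.14 to 0.48 for Anxa8. Anxa4 passed with a pseudocount of 0.1 (0.09, adjusted p 0.0499), without a filter on low values (0.09, 0.0336) and with median-ratio scaling (0.11, 0.0265), and Anxa2 passed in the other direction with quantile normalization (−0.15, 0.0388).

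A second interaction, over the 12 irradiated libraries, compared the TGFB1 effect at D11 with that at D7. The log2 effect was higher at D11 for 2 genes and lower for 5, and 3 did not pass. Of all genes, 31.5% were called higher and 33.0% lower. Anxa1 (0.83, limma adjusted p 1.47e-05) had a larger rise at D11. Anxa11 (0.51, limma adjusted p 0.000143) fell with TGFB1 at D7, whereas its change at D11 did not pass. Anxa5 (−1.23, limma adjusted p 4.78e-07), Anxa2 (−0.80, 0.000423), Anxa3 (−0.65, 0.000339), Anxa10 (−0.48, 0.0252) and Anxa7 (−0.25, 0.0460) had a smaller rise at D11. The Anxa1 term comes with a TGFB1 level that was 1.34 times that of D7 IR and a vehicle level that was 0.730 times. With quantile normalization the count became 5 higher and 2 lower, with Anxa3, Anxa7 and Anxa10 lost and Anxa4, Anxa6 and Anxa8 gained. The Anxa7 call was lost in 12 of 19 alternatives (limma adjusted p up to 0.160) and the Anxa10 call in 5 of 19. The settings that lost Anxa7 were quantile normalization, no filter on low values, no trend, and leaving out any 1 of 9 of the 12 libraries. Both were lost without D7 IR vehicle replicate 2, D7 IR TGFB1 replicate 3 or D11 IR TGFB1 replicate 3 (adjusted p 0.0517 to 0.123), leaving 3 lower. Without D11 IR vehicle replicate 3, 4 were higher. The 2 irradiated D7 groups serve in both interactions, so their terms share libraries.

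The partner list held 20 genes that bind annexins or act with them, of which 15 passed the filter on low values. With TGFB1, 15 of 15 were called higher in D7 non-IR, 14 of 15 in D7 IR, and 12 higher and 1 lower in D11 IR, beside 33.3, 35.8 and 32.3% of all genes called higher. Plau and S100a4 averaged under 1 FPKM with vehicle in every condition. They passed the filter only through their TGFB1 libraries, so only a call of higher was possible for them. The median log2 changes of all 15 tested partners, these 2 included, were 1.52, 1.69 and 1.54, beside −0.02, −0.03 and 0.01 over all genes. S100a10 rose from 851 ± 6.03 to 1826 ± 39.9 FPKM (SD, n = 3) in D7 non-IR and from 369 ± 10.1 to 962 ± 49.2 in D7 IR, with log2 changes of 1.10 and 1.38. At D11 it rose from 416 ± 62.2 to 564 ± 16.2 FPKM (0.45, limma adjusted p 0.0111). S100a11, a calcium sensor that binds Anxa1, rose from 868 ± 84.9 to 2757 ± 184 FPKM in D7 non-IR (1.67), from 851 ± 39.0 to 5233 ± 503 after irradiation at D7 (2.62) and from 1158 ± 285 to 4477 ± 385 at D11 (1.98). Of the plasminogen activators, Plau rose from 0.384 ± 0.119 to 6.19 ± 0.867 FPKM and Plat from 12.6 ± 1.25 to 18.1 ± 0.265 in D7 non-IR. In D7 IR the mean of Plat rose from 8.51 to 17.7 FPKM. At D11 its groups overlapped, with means of 15.4 FPKM for vehicle and 21.3 for TGFB1. The receptors of Anxa1 were near absent, since Fpr1 was listed at 0 in all 18 libraries and Fpr2 reached at most 0.0632 FPKM. Anxa13, an annexin of the intestinal epithelium, fell from 217 ± 4.88 to 133 ± 6.70 FPKM in D7 non-IR (−0.71, limma adjusted p 5.38e-08) and from 252 ± 35.8 to 119.5 ± 16.3 in D11 IR (−1.07, 7.38e-05). In D7 IR it rose from 286 ± 11.9 to 329.8 ± 18.8 FPKM (0.21, limma adjusted p 0.00277). Anxa9 lay between 0.673 and 2.17 FPKM and passed in no condition.

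Across the 18 libraries the 8 genes other than Anxa4 and Anxa11 had pairwise Pearson correlations of 0.738 to 0.995 (28 pairs), and the 17 pairs with Anxa4 or Anxa11 had −0.796 to 0.134. Anxa1 and Anxa6 were the closest pair. These 8 are the genes that TGFB1 raised in every condition, so the split follows the changes in the same libraries. The points share tables and treatment groups, and the tables may have been scaled apart, so these values are descriptions. Among 11473 other genes, the 3 with the pattern most like Anxa1 were Plk2 (0.995), Fgd3 (0.994) and Ckap4 (0.992), with Pearson's r in brackets. For Anxa3 they were Mboat1 (0.991), Capn5 (0.980) and Cnn2 (0.979), for Anxa8 Slc4a11 (0.991), Clu (0.991) and Ctse (0.990), and for Anxa10 Cdc42se1 (0.991), B3gnt3 (0.988) and Map2k4 (0.985).

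In the single-cell time course, 6 of the 9 genes that passed a minimum mean of 5 CPM (unique molecules, or UMIs, of a gene scaled to the total of the library) were at least 2-fold higher at 24 h than at 0 h, and 0 were 2-fold lower. Of all 10078 genes, 5.25% were that much higher and 2.04% that much lower. At 15 h 6 were higher (2.94% of genes) and 0 lower (1.02%), and at 6 h 1 was higher, Anxa8 (1.63%), and 0 lower (0.447%). Anxa1 and Anxa8, both among the 6 at 15 and at 24 h, passed the minimum only through their 15 and 24 h levels. A fall at both of these times could thus not have been counted for them. With 1 library per time there is no test, and intervals cover counting error only.

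Anxa1 had 3.25, 4.01, 31.1 and 98.2 CPM at 0, 6, 15 and 24 h, and the 24 h level was 30.2 times that at 0 h (95% counting interval 24.4 to 37.7). As a ratio, the step from 6 to 15 h was larger than that from 15 to 24 h. Anxa8 had 0.146, 1.88, 14.4 and 29.9 CPM, with only 4 UMIs at 0 h, and a 24 h ratio of 204 (79.5 to 751). Its 6 h ratio was already 12.9 (4.77 to 48.7), whereas that of Anxa1 was 1.23 (0.933 to 1.63).

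Anxa3 had 12.8, 15.0, 48.7 and 99.5 CPM, Anxa5 13.0, 13.6, 40.5 and 87.1 and Anxa10 22.2, 26.2, 90.9 and 156, and their 24 h ratios were 7.79, 6.71 and 7.01. Anxa2 was higher at each later time, with 318, 441, 671 and 842 CPM and a ratio of 2.65. Anxa7 had 79.8, 88.4, 98.8 and 125 CPM. Anxa4 and Anxa11 were lower at 6, 15 and 24 h than at 0 h, with 538, 480.2, 373 and 448 and 108, 80.1, 76.5 and 92.0 CPM and 24 h ratios of 0.832 and 0.848. Anxa6, below the minimum, had 0.914, 1.26, 1.52 and 4.47 CPM.

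**Figure D3:**
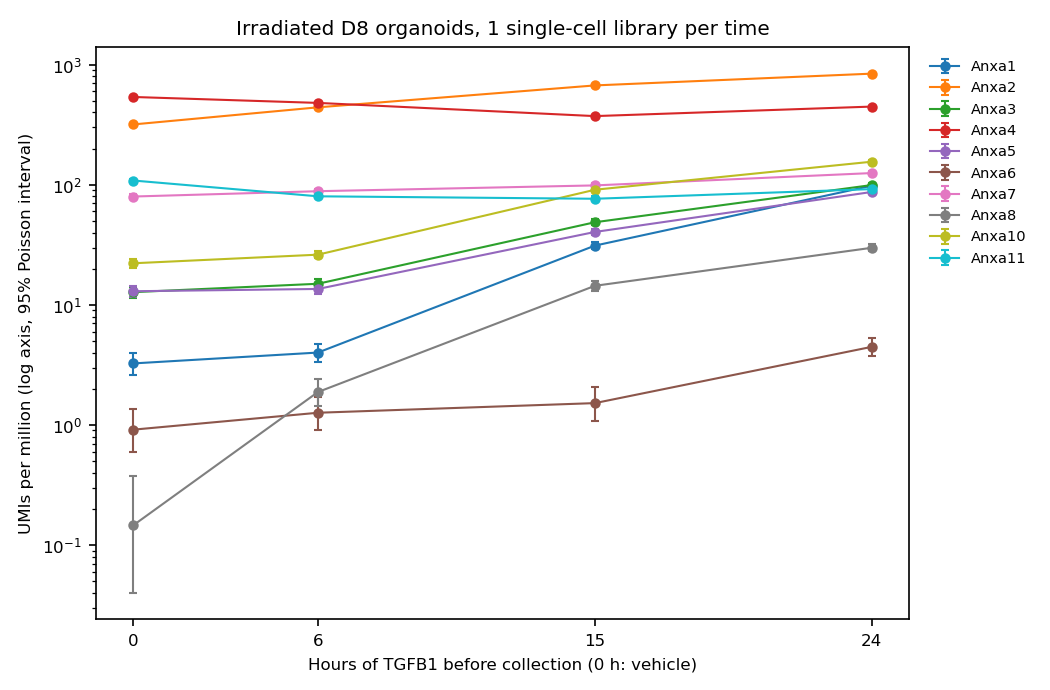
CPM of each annexin (log axis, 95% Poisson intervals) against hours of TGFB1 in irradiated D8 organoids, 1 library per time. Anxa1 and Anxa8 climb most, Anxa3, Anxa5 and Anxa10 climb after 6 h, and Anxa4 and Anxa11 end slightly below their 0 h level.

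The share of cells with a UMI was compared after each cell was thinned to 2000 UMIs, which left out 1 and 5 shallower cells at 0 and 6 h and none later. The organoids offered no cell type known to lack annexins as a background. For Anxa1 it was 0.341% at 0 h and 6.72% at 24 h, without thinning 0.853 and 17.5%. Anxa10 had 3.00 and 15.9% (without thinning 6.38 and 34.7%), and Anxa8 had 0.0341 and 2.71% (without thinning 0.136 and 8.12%). Anxa2 was already found in 37.7% of thinned cells at 0 h and in 56.8% at 24 h.

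Organoid cells were clustered without the annexin genes into 15 clusters, and the annexins were then read in each as a description. 2 clusters stood above the others for several annexins. Cluster 10 (356 cells) was led, annexins aside, by Cwh43, Pyy, Ly6d, Myof, Ctse and Msln, and cluster 9 (419 cells) by Clca4a, Ada, Pnliprp2 and Sprr1a. Anxa1 had 523 CPM in cluster 10, 34.0 in cluster 9 and 28.1 in cluster 6, whose leading genes include Lgr5 of intestinal stem cells, against at most 12.4 in the other 12. Anxa8 had 190.5 CPM in cluster 10 and 13.9 in cluster 9, and it was not above 2.72 elsewhere. Over the summed libraries Anxa10 had 593 and 591 CPM in clusters 10 and 9, but within the 24 h library cluster 9 was higher, at 824 CPM against 541. Anxa2 had 2859 and 2257 CPM. Anxa3 had 429 and 130.2 CPM and Anxa5 289.6 and 213. Anxa11 varied least, from 61.0 to 156 CPM over the 15 clusters. Median depth was 13962 UMIs per cell in cluster 10 and 8071 in cluster 9.

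**Figure D4:**
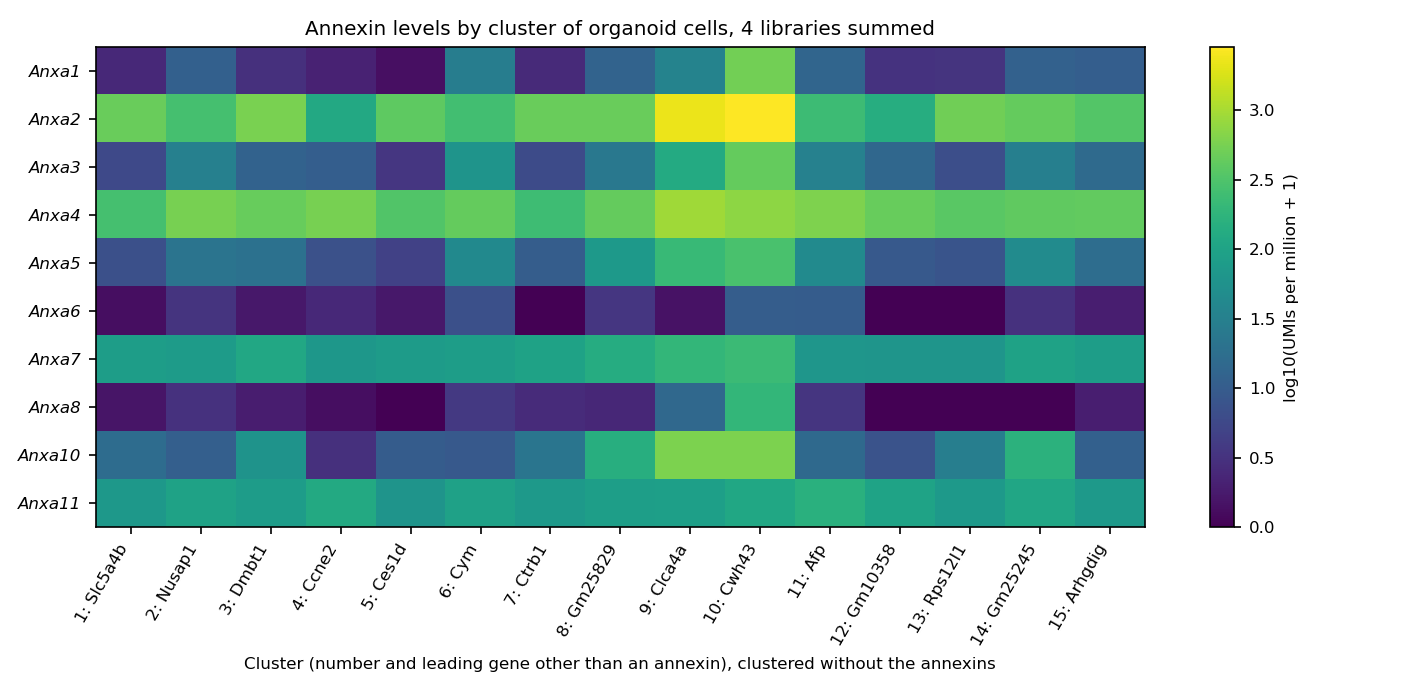
Level of each annexin, as log10(CPM + 1), in the 15 clusters of organoid cells with the 4 libraries summed; columns carry the cluster number and its leading gene other than an annexin. Clusters 9 and 10 are brightest for Anxa2, Anxa5 and Anxa10, cluster 10 alone for Anxa1 and Anxa8, and the row of Anxa11 is even.

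Cluster 10 held 5, 23, 115 and 213 cells at 0, 6, 15 and 24 h (0.171, 0.537, 3.98 and 9.60% of cells). Cluster 9 held 103, 137, 94 and 85 (3.51, 3.20, 3.25 and 3.83%). At 24 h cluster 10 carried 81.6% of the Anxa1 UMIs, 86.6% of Anxa8, 61.9% of Anxa3, 49.2% of Anxa10 and 44.2% of Anxa2. At 0 h cluster 9 carried 64.9% of the Anxa10 UMIs, 41.7% of Anxa5 and 39.8% of Anxa3. Cells of cluster 10 were deeper, at 1.38 times the median depth of their libraries. Its shares of UMIs are thus not on the scale of its shares of cells. Most cells of cluster 10 came from the 15 and 24 h libraries. Within the 24 h library alone, Anxa1 had 567 CPM in cluster 10, 70.0 in cluster 9 and 44.8 in cluster 6. The growth of cluster 10 between times and the difference between those single libraries cannot be told apart.

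Clusters present at every time also differed between libraries. In cluster 2, led by the mitotic genes Nusap1 and Ccnb1, Anxa1 had 1.39 CPM at 0 h and 37.6 at 24 h, Anxa3 9.58 and 89.9, and Anxa2 144 and 461. The Anxa1 value depends on the clustering: cells grouped by proliferation markers at 24 h had 5.12 CPM at a finer Leiden resolution of 1.0. In cluster 3, led by Dmbt1, Anxa10 had 11.7 CPM at 0 h and 119 at 24 h, while Anxa1 had 0.308 and 3.90. Within cluster 9, Anxa2 was nearly level at 2081 and 2329 CPM and Anxa3 at 136 and 129, and Anxa10 was 386 and 824. The part of RNA released from other cells in these low levels was not tested.

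In Ki67-RFP crypt cells 56 h after 12 Gy, edgeR's quasi-likelihood test called 9 of the 10 genes higher and 0 lower, where 17.2% of 16397 genes were called higher and 16.7% lower (Benjamini-Hochberg). All 10 had an unadjusted p under 0.05. Anxa1, Anxa3, Anxa6, Anxa8 and Anxa10 had 3, 12, 7, 1 and 0 UMIs without irradiation. They passed edgeR's filter on low counts only through the irradiated libraries, so only a call of higher was possible for them. DESeq2 called 7 higher and 0 lower, without Anxa6 and Anxa7 (adjusted p 0.276 and 0.0942). The non-irradiated group was 1 library, assumed to vary like the 2 irradiated ones. Irradiated crypts were passed through a wider strainer than non-irradiated ones, so the strainer and irradiation cannot be told apart.

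Anxa10 was not detected without irradiation (0 UMIs) and had 13.98 and 13.4 CPM after it, at least 120.1- and 115-fold higher against a floor of 3 counts in the library (edgeR adjusted p 1.40e-07). Anxa8 had 1 UMI without irradiation and 22.6 and 34.4 CPM after it, a ratio of 584 (95% counting interval 104 to 23121) for replicate 1. Anxa1 had 3 UMIs without irradiation and 20.2 and 33.2 CPM after it, with ratios of 174 (95% counting interval 58.9 to 848) and 285 (95% counting interval 96.9 to 1389). These 3 genes were thus close to the detection limit in cycling crypt cells of the non-irradiated mouse.

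Anxa3 rose from 0.466 CPM to 60.2 and 89.5 CPM (log2 change 7.13, edgeR adjusted p 3.43e-08) and Anxa5 from 2.99 to 26.8 and 29.8 CPM (3.06, 5.64e-07). Anxa2 rose from 209 to 726 and 903 CPM (1.79, edgeR adjusted p 6.34e-06). Anxa4, which fell with TGFB1 at D7 in organoids, rose here from 339 to 544 and 549.7 CPM (0.51, edgeR adjusted p 0.0158); the difference between the experiments was not tested. Anxa7 had 60.3 CPM without and 91.0 and 103 CPM after irradiation (0.51, edgeR adjusted p 0.0216). Anxa6 rose from 7 UMIs (2.18, edgeR adjusted p 0.0232), and Anxa11 did not pass, with 90.8 CPM without and 129.8 and 135 CPM after irradiation (0.37, edgeR adjusted p 0.0755). Of the partners, 11 of 15 tested were called higher and 0 lower by edgeR, beside 17.2 and 16.7% of all genes, and DESeq2 called 9. Those that edgeR called included S100a11 (3.32, edgeR adjusted p 1.77e-07), S100a10 (0.44, 0.0416) and Plat (2.11, 0.000884). Also called were Plau, Ehd2, Plaur, Myof and S100a4, which had 0, 0, 3, 9 and 10 UMIs without irradiation. They too passed edgeR's filter on low counts only through the irradiated libraries, so only a call of higher was possible for them. Anxa13 fell (−0.74, edgeR adjusted p 0.00407).

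**Figure D5:**
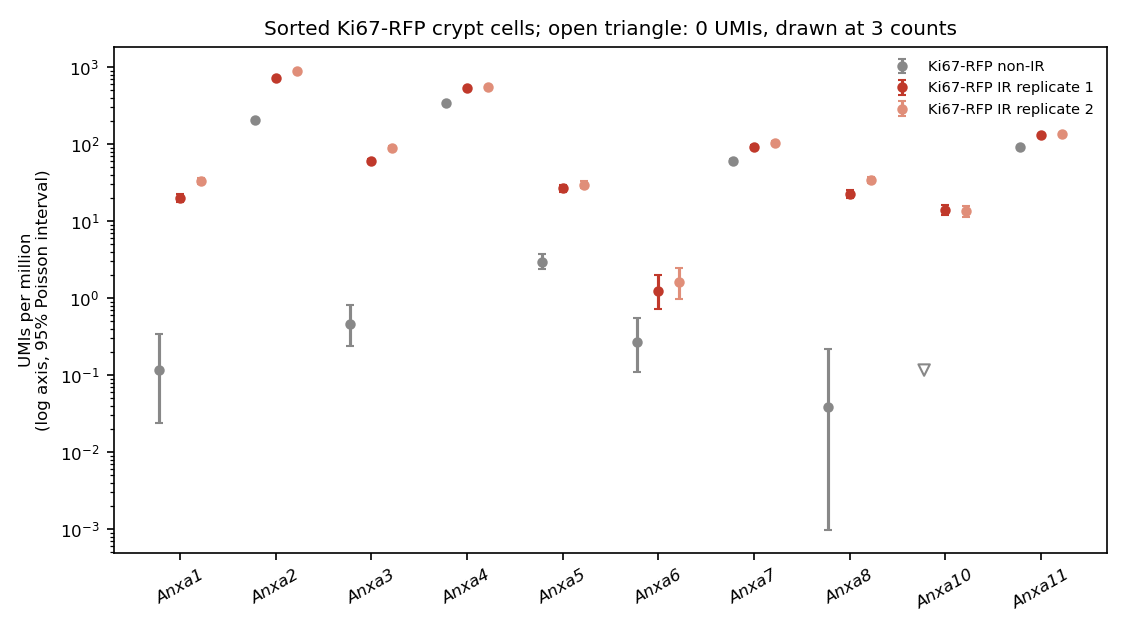
CPM of each annexin (log axis, 95% Poisson intervals) in sorted Ki67-RFP crypt cells of 1 non-irradiated library (grey) and 2 libraries 56 h after 12 Gy (reds). Anxa1, Anxa3, Anxa8 and Anxa10 are close to 0 without irradiation (the open triangle marks 0 UMIs, drawn at 3 counts), and both irradiated libraries lie above the grey point for all 10 genes.

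The summed immune markers were 8.41 CPM without irradiation and 18.5 and 12.1 CPM after it, and the endothelial ones 8.59, 15.8 and 15.7 CPM. A cluster of 8 cells led by the lymphocyte genes Nkg7 and Xcl1 (2 without irradiation, 4 and 2 after it) held 0 UMIs of Anxa1, Anxa3, Anxa8 and Anxa10, and 3 of the 7, 17 and 20 UMIs of Anxa6 in each library. Without these cells 9 genes were still called higher and 0 lower, an alternative chosen after the data were seen. The part of the endothelial markers was not tested.

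Clustering, again without the annexins, largely separated the libraries. Cluster 2 held 0, 296 and 393 cells of the non-irradiated and the 2 irradiated libraries. Its leading genes besides Anxa8 were Slc4a11, Gm25829, Gm23924, Clu and Mcam. It had 48.8 CPM of Anxa1, 120.3 of Anxa3, 57.4 of Anxa8 and 1194 of Anxa2. Clusters 4 and 5 also held 0 cells of the non-irradiated library. Cluster 8, led by the goblet cell genes Clca1, Fcgbp and Tff3 and by Neurog3 and Insm1 of endocrine precursors, was present in all 3 libraries (69, 38 and 20 cells). In it Anxa5 had 10.1 CPM without and 50.5 and 47.0 after irradiation, and Anxa2 had 155, 308 and 304. Anxa1 there was 0, 0 and 2.76 CPM.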

How the data were processed

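Bulk values were deposited by the authors as FPKM, 1 table per condition; single-cell matrices were deposited by them as UMI counts that are expected counts, since some entries are fractional. The submitters' processing notes name TopHat2 2.1.0, Cuffnorm 2.2.1, STAR 2.7.10a and STARsolo, and the builds mm9, GRCm39 and mm39, without their roles. In R 4.3.3, limma 3.58.1 (trend, robust) was run on log2(FPKM + 1) per table, or over 12 libraries for interactions, for genes averaging 1 FPKM or more. Cells needed 500 UMIs, 250 genes and no more than 20% mitochondrial UMIs. Summed UMIs, rounded, were tested with edgeR 4.0.16, with DESeq2 1.42.0 as alternative. Intervals are exact at 95% and cover counting error only. Cells were clustered with scanpy 1.11.5 and leidenalg 0.10.2 at resolution 0.6, doublets were left in, and the naming thresholds were set after the clusters were seen. All 10 genes were named, values were given for 6 partners fixed by name, and the 3 genes most alike are given for 4 members. Alternatives changed the pseudocount, filter, scaling, replicate block and cell filters or left out each library. The fits were tested on simulated data. All deposited columns used were mapped to samples. ATAC peak lists were not used here, as the sources used here name no build for them. The genes and lists were chosen with earlier results of these data known.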

Additional observations from a re-analysis of the deposited data

Results flagged for a closer look

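Effects of TGFB1 that differed between conditions by limma's interaction test are listed here because the difference itself passed (Benjamini-Hochberg adjusted p under 0.05). With irradiation at D7 the log2 effect differed by 0.99 for Anxa3, 0.93 for Anxa5, 0.69 for Anxa10, −0.26 for Anxa6, −0.29 for Anxa1 and −0.56 for Anxa11. Between D7 and D11 in irradiated organoids it differed by 0.83 for Anxa1, 0.51 for Anxa11, −0.25 for Anxa7, −0.48 for Anxa10, −0.65 for Anxa3, −0.80 for Anxa2 and −1.23 for Anxa5. The Anxa7 term no longer passed in 12 of 19 alternatives and the Anxa10 term between days in 5 of 19. Such terms were common in these tables, at 53.1 and 64.5% of all genes. Groups of 3 libraries or fewer were not screened for outlying samples.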

How the results depend on the processing

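In D7 non-IR and D7 IR no alternative moved a call or a direction of any of the 10 genes. At D11 the count of genes called lower went from 1 to 0 with median-ratio scaling and with quantile normalization, and ranged from 0 to 1 with 1 library left out. Anxa4 then had 0.0031 with quantile normalization. For the interaction with irradiation, Anxa8 turned to −0.13 with a pseudocount of 0.1, and Anxa2 to −0.15 with quantile normalization. With 1 library left out, Anxa2 ranged from −0.0393 to 0.0414, with −0.0041 without D7 non-IR TGFB1 replicate 1, and Anxa7 from −0.0073 to 0.10. For the interaction with day, the counts of 2 higher and 5 lower became 5 and 2 with quantile normalization and 4 higher when the 18 libraries were fitted together. They ranged from 2 to 4 higher and 3 to 5 lower with 1 library left out. Anxa4 turned to 0.40 with quantile normalization and ranged from −0.0848 to 0.0031 with 1 library left out. The cause of these moves was not tested.

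Same-numbered vehicle and TGFB1 libraries had correlated deviations of −0.0856 to 0.213, not all over 0.1, so the numbers were not taken to pair them. With the replicate number as a block, 9, 8 and 8 genes were called higher and 1, 2 and 0 lower in the 3 conditions, and the interactions gave 3 higher and 3 lower (irradiation) and 3 higher and 5 lower (day).

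In the time course no alternative moved the counts of 6 higher and 0 lower. Without thinning, or at 1000 UMIs, 17 to 20 of 20 shares of cells moved at each time. In cells grouped by proliferation markers, Anxa1 at 24 h went from 37.6 to 5.12 CPM at a Leiden resolution of 1.0. In Ki67-RFP cells 7 to 10 genes were called higher over the alternatives and 0 lower. Read depth limits the bulk values in an unknown way, and 0 to 3 UMIs limit the ratios of Anxa1, Anxa8 and Anxa10.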
